A study of Mus musculus with 140 samples.

Results

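The enzymes and cofactors that write, keep, remove and read methyl groups on cytosine were followed in mouse embryonic stem cells during knockdown of 1 regulator of self-renewal at a time. The genes were the maintenance pair Dnmt1 and Uhrf1, the de novo enzymes Dnmt3a and Dnmt3b with their cofactor Dnmt3l, the oxidase Tet1, and Mbd3. Members were all probe sets on a pair of expression arrays whose annotation named only 1 of these 7 genes, which gave 18 of the 45265 probe sets. Dnmt3a had 5, Tet1 4, Dnmt1 3, Dnmt3b and Uhrf1 2 each, and Dnmt3l and Mbd3 1 each. A filter on low signals left 17 of the 18, among 33006 probe sets tested. The Tet1 probe set 1419897_at, listed between 12.6 and 247.3, did not pass it. The rule uses no measured value, though the genes were chosen with earlier results of these data known.

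The study used CCE cells, a male embryonic stem cell line of the 129/Sv strain, and profiled total RNA of 70 samples on 140 Affymetrix arrays, 1 MOE430A and 1 MOE430B array per sample. In 7 courses the cells carried a short hairpin RNA (shRNA) against Nanog, Oct4 (gene symbol Pou5f1), Sox2, Esrrb, Tbx3, Tcl1 or Mm343880, a transcript named only by its cluster number. In the reference course they carried the empty H1P vector. All 8 of these courses were kept in leukaemia inhibitory factor (LIF) at 1000 units/ml, the cytokine that sustains self-renewal, and cells positive for green fluorescent protein (GFP) were sorted each day. Day 0 was 48 hours after transduction. The ninth course received retinoic acid at 5 µM without LIF. Neither transduction nor GFP sorting is stated for it, so retinoic acid, LIF withdrawal and any lack of transduction cannot be told apart there. Each course had 1 sample per day, from day 0 to day 7 (8 samples) or to day 6 (7 samples) for Mm343880 shRNA and retinoic acid. No replicate transduction is stated, and each course was treated as unreplicated. The p-values thus measure the spread of single samples around smooth curves of time and not the spread between transductions. In bulk RNA, fewer cells of a type and less RNA per cell cannot be told apart.

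In mammals methyl groups sit mostly on cytosines of CpG dinucleotides. Dnmt3a and Dnmt3b place them on unmethylated DNA. Dnmt3l has no activity of its own and stimulates both. After replication Uhrf1 recognises hemimethylated CpG and recruits Dnmt1, which copies the mark to the new strand. Tet1 oxidises 5-methylcytosine, a step towards its removal. Mbd3 belongs to the methyl-binding domain family by sequence but does not bind methylated DNA selectively, and it is a core subunit of the NuRD deacetylase and remodelling complex. Embryonic stem cells are known for high Dnmt3b, Dnmt3l and Tet1 and can grow without the de novo or maintenance enzymes.

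The start regions of 4 of these genes are printed because the results turn on them: Dnmt3b and Dnmt3l, the genes whose leading probe sets had the largest late differences in retinoic acid, Dnmt3a, whose probe sets differed among themselves, and Uhrf1, whose profile was nearest to that of a replication gene. Each window covers 250 bases before to 50 after an annotated transcription start (RefSeq, mouse build GRCm38.p6), 5′ to 3′ on the gene's strand, with CpG dinucleotides in capitals. All 7 genes had an entry, with 14 windows in all. Dnmt3b has 1 start, with 30 CpG in chr2:153649199-153649498 (plus strand). Dnmt3l has 3, of which the first lies in chr10:78042037-78042336 (plus strand) with 6 CpG. Dnmt3a has an upstream window, chr12:3806730-3807029 (plus strand) with 46 CpG, and a downstream one, chr12:3891494-3891793 (plus strand) with 18 CpG. The downstream start lies 84764 bases inside the gene, and a shorter enzyme made from an internal promoter is known as the form of embryonic stem cells. The second Uhrf1 window is chr17:56304063-56304362 (plus strand) with 33 CpG.
Dnmt3b: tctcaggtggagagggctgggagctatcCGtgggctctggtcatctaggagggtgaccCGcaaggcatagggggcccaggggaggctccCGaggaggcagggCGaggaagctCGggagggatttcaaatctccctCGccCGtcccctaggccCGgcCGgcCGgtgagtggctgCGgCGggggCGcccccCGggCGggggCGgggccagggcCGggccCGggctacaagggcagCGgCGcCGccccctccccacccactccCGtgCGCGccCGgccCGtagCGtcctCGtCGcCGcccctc
Dnmt3l, first start: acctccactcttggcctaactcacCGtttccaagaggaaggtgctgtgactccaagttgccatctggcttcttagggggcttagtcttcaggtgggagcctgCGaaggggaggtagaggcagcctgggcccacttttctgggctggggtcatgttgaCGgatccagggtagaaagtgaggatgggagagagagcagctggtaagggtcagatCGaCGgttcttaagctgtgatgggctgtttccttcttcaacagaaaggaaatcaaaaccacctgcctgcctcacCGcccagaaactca
Dnmt3a, upstream start: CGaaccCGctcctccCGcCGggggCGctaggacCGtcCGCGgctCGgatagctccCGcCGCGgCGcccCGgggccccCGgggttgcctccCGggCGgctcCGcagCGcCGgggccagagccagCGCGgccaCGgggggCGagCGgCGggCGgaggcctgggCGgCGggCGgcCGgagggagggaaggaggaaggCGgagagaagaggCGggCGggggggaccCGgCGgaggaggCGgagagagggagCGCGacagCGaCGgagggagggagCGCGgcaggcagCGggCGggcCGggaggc
Dnmt3a, downstream start: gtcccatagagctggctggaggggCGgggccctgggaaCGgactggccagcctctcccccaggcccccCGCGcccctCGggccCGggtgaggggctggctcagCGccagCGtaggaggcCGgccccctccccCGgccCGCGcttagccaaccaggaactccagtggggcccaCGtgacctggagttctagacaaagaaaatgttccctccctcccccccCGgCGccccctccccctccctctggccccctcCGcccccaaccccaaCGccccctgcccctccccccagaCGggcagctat
Uhrf1, second start: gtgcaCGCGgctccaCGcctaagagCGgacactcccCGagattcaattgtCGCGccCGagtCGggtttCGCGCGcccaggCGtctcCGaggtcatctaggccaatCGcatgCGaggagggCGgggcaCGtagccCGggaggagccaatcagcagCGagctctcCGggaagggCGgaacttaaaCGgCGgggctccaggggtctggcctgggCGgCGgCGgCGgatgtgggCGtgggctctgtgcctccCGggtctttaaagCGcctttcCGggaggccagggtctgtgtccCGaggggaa

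Of 32851 windows of this length, 11.7% held at least as many CpG as the Dnmt3b window, 1.65% as many as the upstream and 29.7% as many as the downstream Dnmt3a window, and 8.56% as many as the Uhrf1 window. The median window held 7 CpG. The Dnmt3l starts were CpG-poor. Their windows had 6, 4 and 3 CpG, and 56.4%, 68.6% and 76.7% of all windows, in that order, held at least as many. The windows of Tet1 and Mbd3 held 17 and 22 CpG. The E2F-type words TTTCGCGC and TTTGGCGC, which differ in 1 letter, were searched on both strands. TTTCGCGC stood in the second Uhrf1 window and in 1 of 3 Dnmt1 windows, which also held TTTGGCGC, and neither word stood in the other 12 windows. They occur in 0.323% and 0.514% of all windows and at least 1 of them in 0.813%. A match is a description and not a site of binding.

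Values were MAS5 signals, a linear intensity for each probe set. Array medians ranged from 236 to 383 on the A and from 64.4 to 128.4 on the B arrays, and the retinoic acid arrays had the highest median of array medians of the 9 courses on both. The targeted gene was below the empty vector on 8 of 8 days in each of the 6 courses with a named target, by mean log2 differences of -1.39 (Esrrb) to -2.96 (Tbx3). Summed over 10 markers of embryonic stem cells, the mean late signal was 98094 in the empty vector course, where 10 of 10 were above the table median on all days, from 42704 (Oct4) to 96844 (Mm343880) in the shRNA courses, and 2023 in retinoic acid. The 8 trophectoderm markers tested summed to 5473 in the empty vector, 60727, 53019 and 57483 in the Nanog, Oct4 and Sox2 shRNA courses, and 16105 to 34727 in the other 4 shRNA courses and 14992 in retinoic acid. The 7 fibroblast markers tested, a check for feeder cells, summed to 1820.5 in the empty vector, 3484 and 3187 with Esrrb and Tbx3 shRNA, 1416 to 2226 in the other 5 shRNA courses and 19395 in retinoic acid, where they were between 1614 and 23702 over the days. Of these 7 genes 2 were above the table median on all days in the empty vector and in retinoic acid. The 9 markers of extraembryonic endoderm tested summed to 7581 in the empty vector, 11488 to 18394 in the shRNA courses and 38658 in retinoic acid, the 5 of primed epiblast to 2968, 2580.1 to 5594 and 899, and the 4 of neuroectoderm to 2189, 1619 to 2172 and 2105. These sums follow the brightest genes. By the late difference defined below, 2 endoderm markers were higher and 1 lower with Oct4, 1 and 2 with Esrrb and 1 and 1 with Tbx3 shRNA. The medians were -0.20, -0.22 and -0.27 there, and 0.11 to 0.62 in the other shRNA courses. In retinoic acid 4 trophectoderm markers were higher and 3 lower (median 0.25 against 0.16 over all probe sets). With Mm343880 shRNA 4 of 10 stem cell markers were lower (median -0.44). The part of these cell types in the members' late values was not tested.

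In retinoic acid most of the machinery was lower and Dnmt3a higher on most of its probe sets. Among the knockdowns, Dnmt3b was higher with Nanog, Oct4, Esrrb, Tbx3, Tcl1 and Mm343880 shRNA. Uhrf1 was lower with Nanog, Sox2 and Mm343880 shRNA, and Dnmt3l with Sox2 and Esrrb shRNA. Tet1 was lower with Esrrb shRNA on all its tested probe sets, and with Oct4 and Sox2 shRNA on the leading one only. A late difference is the fitted mean over days 4 to 6 of a course minus that of the empty vector, on the scale log2(signal + pseudocount), where the pseudocount of 63.3 (A) or 21.9 (B) understates changes of dim probe sets. Adjusted p-values are from limma with Benjamini-Hochberg adjustment over all 33006 probe sets, and 0.05 was the threshold. In retinoic acid 4 of the 17 member probe sets were higher and 10 lower (82.4% of them, against 43.6% of all probe sets), the 4 higher ones all of Dnmt3a. Of these 4, 1460324_at passed the filter on low signals only through the retinoic acid arrays, and it adds nothing to the share as support. In the shRNA courses the counts of higher and lower were 2 and 3 for Nanog (29.4% against 15.6% of all), 2 and 5 for Oct4 (41.2% against 11.4%), 1 and 5 for Sox2 (35.3% against 16.5%), 2 and 5 for Esrrb (41.2% against 8.56%) and 2 and 4 for Mm343880 (35.3% against 11.6%). Tbx3 and Tcl1 shRNA each had 2 higher and 0 lower (11.8%, against 8.04% and 6.47% of all), a share near the background, and both were the Dnmt3b probe sets. All 8 comparisons share the empty vector samples, so their counts are not independent of each other. Probe sets of the same gene are not separate units either, so shares of the 17 probe sets are not shares of genes.

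These counts leaned on single late days and on the curve. The share of all probe sets that passed in the same refits is not given here. The falls can therefore not be called particular to the members. Without day 5 in any course the member count fell to 2 for Nanog and 2 for Sox2 shRNA. Without day 4, 5 or 6 it was 2 each time for Oct4 and 3, 3 and 4 for Esrrb. Without day 6 it was 1 for Mm343880 and 9 for retinoic acid. For Tbx3 shRNA it was 1 without day 5 or 6 and 4 without day 0 or 1, and for Tcl1 4 without day 0. With plain means of days in place of curves, the total over the 8 comparisons was 24 in place of 49, with 0 for Esrrb, 0 for Tbx3, 1 for Oct4, 2 for Sox2 and 3 for Mm343880. No late call changed sign under any alternative. With quantile normalization, which moved the median of all probe sets in retinoic acid from 0.16 to -0.10, 4 members were higher and 11 lower there, while the share of higher among all late calls went from 62.5% to 47.0% in retinoic acid and from 57.8% to 46.9% in the Nanog course.

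**Figure D1:**
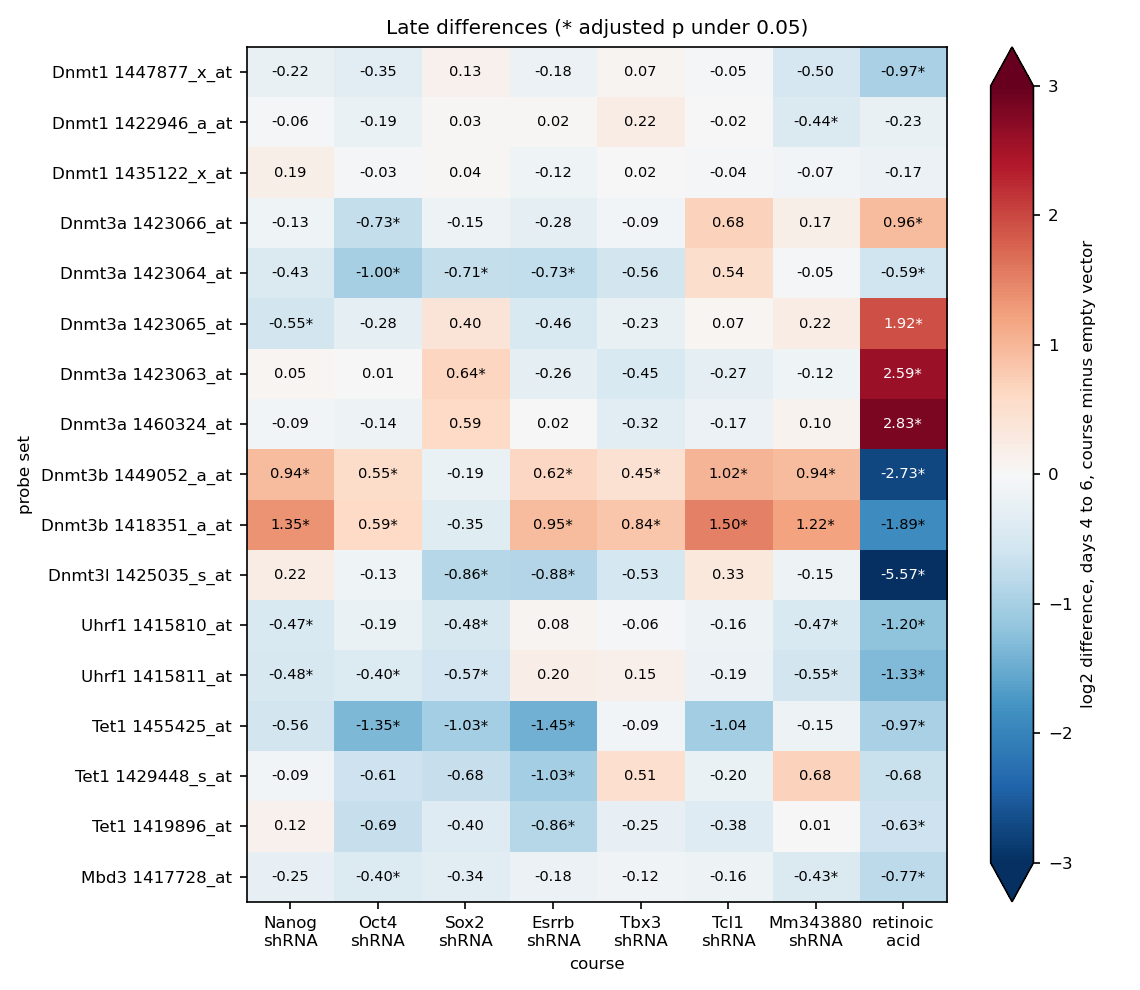
Late differences from the empty vector (log2, days 4 to 6) of the 17 member probe sets tested (rows) in the 8 courses (columns). Colour and printed values give the difference, the colour scale ends at 3 in either direction, and an asterisk marks an adjusted p under 0.05. The 2 Dnmt3b rows are above 0 in the shRNA courses other than Sox2 (-0.19 and -0.35), and Dnmt3l reaches -5.57 in retinoic acid.

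Dnmt3b, the de novo enzyme that methylates much of the embryonic genome, was high with the empty vector and higher still in most knockdown courses. The empty vector is 1 course. On day 0 it had 3159 on 1449052_a_at and 651 on 1418351_a_at, against 7154 and 4921 in the retinoic acid course. With the empty vector the signal of probe set 1449052_a_at was 3159 at the lowest, 3917 at the median and 4621 at the highest (n = 8 days). With Nanog shRNA it was 4020.4 at the lowest, 7309.6 at the median and 9291 at the highest, with Tcl1 shRNA 4121 at the lowest, 7724 at the median and 8834 at the highest, and with Mm343880 shRNA 3575 at the lowest, 7179 at the median and 9035 at the highest (n = 7 days). From day 1 on every Nanog shRNA value lay above every empty vector value, and so did the Tcl1 values from day 1 and the Mm343880 values from day 2 on. The late differences were 0.94 ± 0.13 (SE, adjusted p = 2.73e-07) for Nanog, 1.02 ± 0.13 (adjusted p = 4.3e-07) for Tcl1 and 0.94 ± 0.13 (adjusted p = 1.09e-06) for Mm343880 shRNA, which are 1.92-, 2.02- and 1.92-fold. These 3 calls, and that of retinoic acid below, held under every alternative and with each single day left out.

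With Oct4 and Tbx3 shRNA Dnmt3b was above the empty vector range already on day 0, and with Esrrb shRNA from day 1 on. With Oct4 shRNA all 8 days lay between 5646 and 7526 (median 6659.9), above every empty vector value already on day 0. With Tbx3 shRNA the signal was 5184 on day 0, 9584 on day 3 and 3866 on day 7, which is inside the empty vector range. With Esrrb shRNA it was 4251 on day 0, also inside that range, 8851 on day 2 and 6902 on day 7. The late differences were 0.55 ± 0.13 (adjusted p = 0.00155) for Oct4, 0.62 ± 0.13 (adjusted p = 5.54e-04) for Esrrb and 0.45 ± 0.13 (adjusted p = 0.0177) for Tbx3. They did not pass with plain means of days (0.58, adjusted p = 0.117, 0.68, adjusted p = 0.0719 and 0.47, adjusted p = 0.272), nor for Oct4 without day 6 (0.45, adjusted p = 0.0655) and for Tbx3 without day 5 or 6 (0.35 to 0.52, adjusted p from 0.0807 to 0.196). The early difference, over days 0 and 1, was 0.95 ± 0.15 (adjusted p = 4.97e-05) for Oct4, 0.90 ± 0.15 (adjusted p = 3.88e-04) for Tbx3 and 0.72 ± 0.15 (adjusted p = 0.0101) for Esrrb. The calls were lost without day 0 for Oct4 (0.84, adjusted p = 0.934) and Tbx3 (0.98, adjusted p = 0.832), though at similar sizes. The Esrrb call was lost without day 0 or 1 (0.61 to 1.25, adjusted p from 0.0568 to 0.403). On day 1 itself the signals were 6584, 8098 and 8175 with Oct4, Tbx3 and Esrrb shRNA, against 3717 with the empty vector.

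In the day-matched comparison, an exact permutation test, two-sided, that flips the signs of the daily differences, uses no curve and is given here unadjusted as 1 of 56 such tests, Dnmt3b was higher on 8 of 8 days with Nanog, Oct4, Esrrb, Tbx3 and Tcl1 shRNA (exact p = 0.00781 each, the smallest that 8 days allow). The mean differences were 0.87 ± 0.25 (SD, n = 8) for Nanog and 0.72 ± 0.37 for Tbx3, the highest and the lowest of the 5. Mm343880 shRNA was higher on 7 of 7 days (exact p = 0.0156, the smallest that 7 days allow). The test treats days as independent, though the days of a course are not replicate courses. All courses are set against the same empty vector samples, and an offset of a whole course would also give such a p. The second Dnmt3b probe set, 1418351_a_at, had late differences of 0.59 (Oct4) to 1.503 (Tcl1) in the same 6 courses, all past the threshold. The Oct4 call was lost without day 4 or 6 (0.40 to 0.48, adjusted p from 0.232 to 0.294) and the Mm343880 call without day 6 (0.85, adjusted p = 0.236). The signals of the 2 probe sets correlated at r = 0.91 over the 70 samples, which share courses.

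Sox2 shRNA was the course whose late Dnmt3b values lay nearest to those of the empty vector. The day 4, 5 and 6 signals were 3372, 3567 and 3961, inside the empty vector range, and the late differences were -0.19 ± 0.13 (adjusted p = 0.376) for 1449052_a_at and -0.35 ± 0.18 (adjusted p = 0.192) for 1418351_a_at. The courses were fitted against each other in 28 pairs and 1 contrast of 3 against 3, with p-values adjusted within each over all probe sets. The 6 pairs with Sox2 shRNA are given because of the values above, a choice made after they were seen. On 1449052_a_at Sox2 shRNA was lower than Nanog shRNA by 1.13 ± 0.13 (SE, adjusted p = 2.11e-08, where 6.79% of all probe sets passed) and than Oct4 shRNA by 0.74 ± 0.13 (adjusted p = 7.35e-05, 4.66% of all). Sox2 minus Esrrb was -0.81 ± 0.13 (adjusted p = 9.99e-06, 10.5% of all), Sox2 minus Tbx3 -0.64 ± 0.13 (adjusted p = 2.15e-04, 15.2%), Sox2 minus Tcl1 -1.20 ± 0.13 (adjusted p = 1.29e-09, 16.2%) and Sox2 minus Mm343880 -1.13 ± 0.13 (adjusted p = 9.57e-09, 12.9%). So the difference itself passed in all 6 pairs, with each course treated as 1 transduction.

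**Figure D2:**
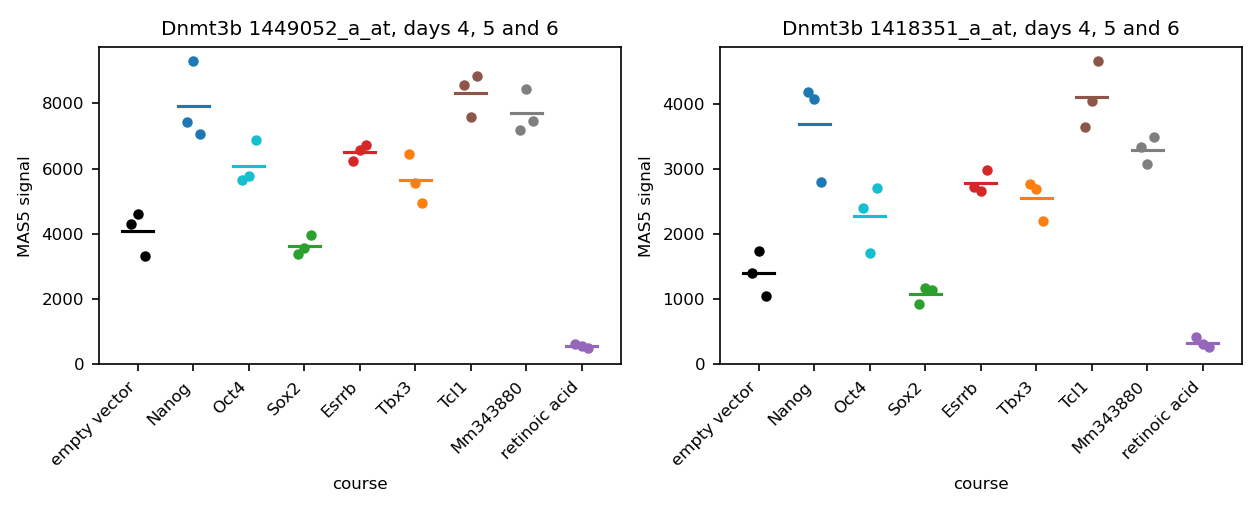
Dnmt3b signals (linear MAS5 units) of probe sets 1449052_a_at (left) and 1418351_a_at (right) on days 4, 5 and 6 in the 9 courses. Each point is 1 day's sample and the line their mean. On both, retinoic acid is lowest and the points of Sox2 shRNA lie beside or below those of the empty vector, while most points of the other shRNA courses lie above them.

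In retinoic acid Dnmt3b fell from the first day. The signal was 7154 on day 0, 2979.9, 1842 and 1101 on days 1 to 3 and 619.9, 554 and 495 on days 4 to 6. All values from day 1 on lay below every empty vector value, while day 0 lay above them all. The late difference was -2.73 ± 0.13 (SE, adjusted p = 1.1e-21), or 6.62-fold lower, and -1.89 ± 0.18 (adjusted p = 4.73e-12) on the second probe set. Since the day 0 sample was 7154 against 3159 with the empty vector, the early difference was 0.48 ± 0.15 (adjusted p = 0.045), lost without day 0, 1, 2, 3, 6 or 7 (0.12 to 0.57, adjusted p from 0.0514 to 0.933). The change within the course, late minus early, was -2.95 ± 0.14 (adjusted p = 1.43e-20).

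Dnmt3l, the cofactor, had the widest range of any member. The empty vector signals were 3318 at the lowest, 4912 at the median and 5451 at the highest. In retinoic acid the 7 daily values were 4446, 640.4, 520.4, 288, 60.5, 29.4 and 27.6: the first was inside the empty vector range, all later ones far below it, and the last 3 were under the pseudocount of 63.3. The late difference was -5.57 ± 0.19 (SE, adjusted p = 2.8e-26), or 47.4-fold, which the pseudocount limits. The change within the course was -4.26 ± 0.21 (adjusted p = 4.66e-20), and -2.68 without day 0. The array has only 1 Dnmt3l probe set, of the type (suffix _s_at) whose probes can match several transcripts.

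Nanog shRNA gave a rise and a fall that the late window hides. The Dnmt3l signal went from 5039 on day 0 to 8906, 11595 and 10593 on days 1 to 3 and back to 3594 on day 6 and 3989 on day 7. The values of days 1 to 5 lay above every empty vector value, and the last 2 inside that range. The F test of any change with day passed (adjusted p = 2.31e-05, as did 13.5% of all probe sets), while the late difference of 0.22 ± 0.19 (adjusted p = 0.523) did not. With Esrrb and Tbx3 shRNA the signal began high and ended low: 7023, 7600.3 and 2149.5 on days 0, 2 and 7 with Esrrb, and 6662, 7592 and 2334 with Tbx3. Both started above every empty vector value and ended below every one. The F tests gave adjusted p = 1.12e-06 for Esrrb (6.94% of all), 1.23e-04 for Tbx3 (3.3%) and 1.05e-18 for retinoic acid (23.9%).

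Late minus early, Dnmt3l fell by 1.41 ± 0.21 on the log2 scale with Esrrb shRNA (adjusted p = 7.68e-06) and by 0.97 ± 0.21 with Tbx3 shRNA (adjusted p = 0.00365). The Tbx3 call was lost without day 0 (-0.93, adjusted p = 0.107). Late levels were lower than in the empty vector with Esrrb shRNA, at -0.88 ± 0.19 (adjusted p = 9.98e-04), and with Sox2 shRNA, at -0.86 ± 0.19 (adjusted p = 6.71e-04). On days 4 to 6 the signals were 3013, 2862 and 2319 and 2842, 2613 and 2917, all below the lowest empty vector value. Set against the late empty vector days alone, 3634 (Esrrb) and 4308 (Sox2) of 33006 probe sets lay below. Neither of the 2 Dnmt3l differences passed with plain means of days (-0.82, adjusted p = 0.147 and -0.79, adjusted p = 0.11). The late difference for Tbx3 shRNA was -0.53 ± 0.19 (adjusted p = 0.0712), for Oct4 -0.13 ± 0.19 (adjusted p = 0.776), for Tcl1 0.33 ± 0.19 (adjusted p = 0.341) and for Mm343880 -0.15 ± 0.19 (adjusted p = 0.696). So in the Sox2 course Dnmt3l was lower while Dnmt3b did not pass, and in the Esrrb course Dnmt3l was lower while Dnmt3b was higher, with a late Dnmt3b signal of 6231, 6575 and 6727. Over all 70 samples the leading probe sets of the 2 genes correlated at r = 0.87, a description over samples that share courses and include the large retinoic acid change.

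**Figure D3:**
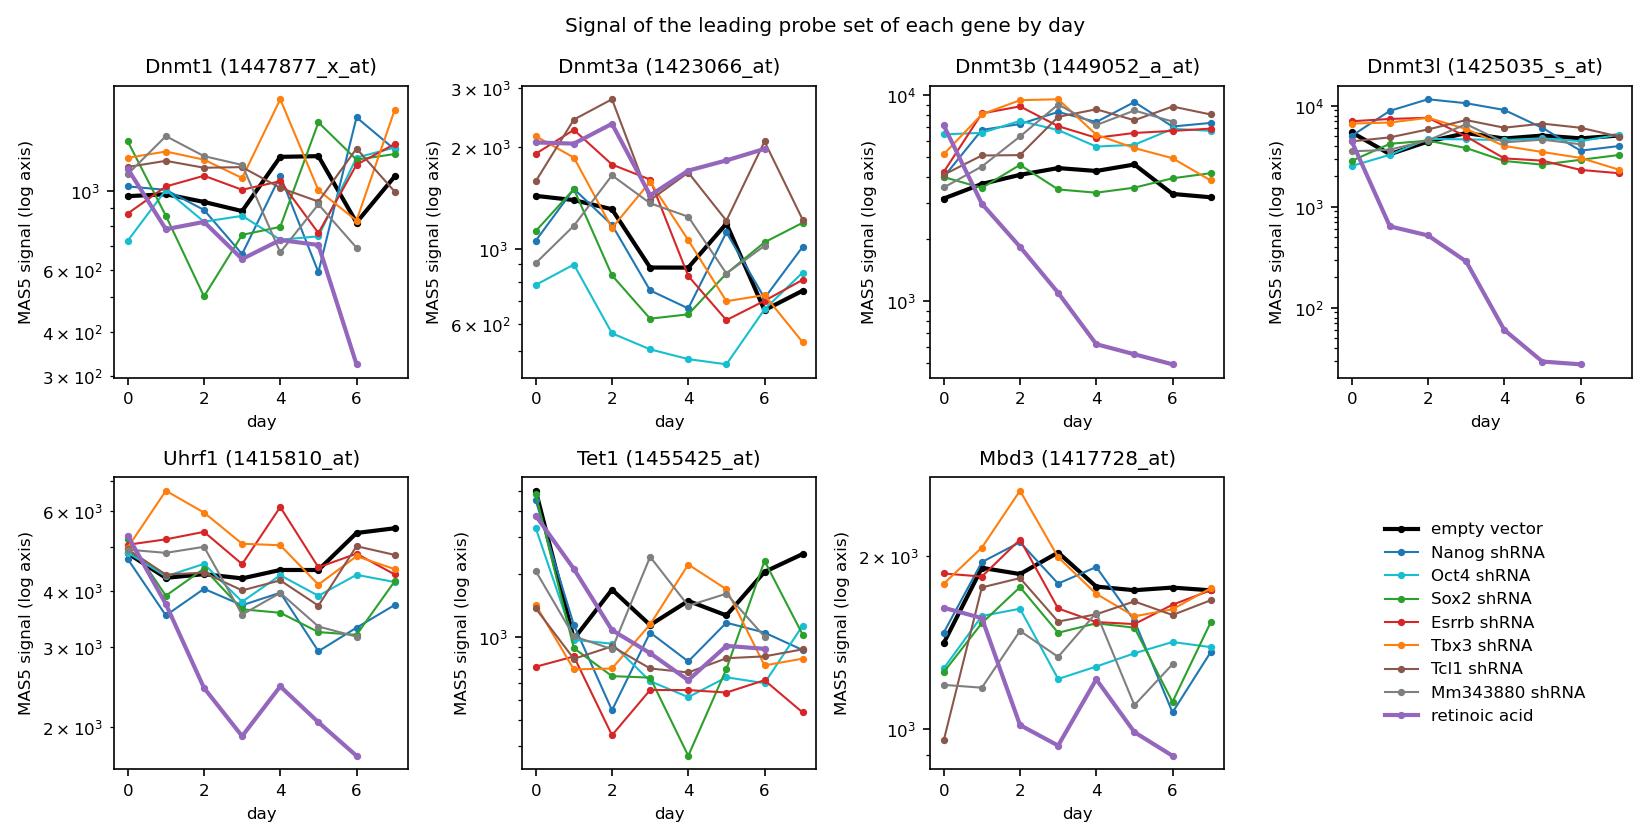
Signal (MAS5 units, log axis) of the leading probe set of each of the 7 genes by day, 1 panel per gene, 1 line per course and 1 sample per point. The leading probe set is the one with the highest mean percentile rank of signal. Dnmt3l with Nanog shRNA peaks at 11595 on day 2, and Dnmt3b and Dnmt3l drop in retinoic acid to 495 and 27.6 on day 6.

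Dnmt3a, the other de novo enzyme, could not be given 1 answer, since its 5 probe sets moved in different directions. Which transcript each detects was not determined here. In retinoic acid 4 probe sets were higher late: 1460324_at by 2.83 ± 0.22 (SE, adjusted p = 2.33e-14), 1423063_at by 2.59 ± 0.19 (adjusted p = 2.73e-15), 1423065_at by 1.92 ± 0.19 (adjusted p = 1.69e-11) and the leading one, 1423066_at, by 0.96 ± 0.22 (adjusted p = 3.79e-04). The fifth, 1423064_at, was lower at -0.59 ± 0.23 (adjusted p = 0.0356). 1460324_at was above the table median on 7 arrays, 5 of them of retinoic acid, so it would not have passed the filter of 3 arrays without that course, and its value is a description. With no filter its late difference was 2.83 ± 0.22 (adjusted p = 5.92e-14). The 1460324_at signal was 153, 242, 569.8, 686, 1039, 1836 and 2065 on days 0 to 6, against 85.7 at the lowest, 144 at the median and 210.0 at the highest with the empty vector. Every value from day 1 on was above that range. Over the same days 1423064_at went from 1231 and 1251 to 561 and 506. Leaving out day 6 ended the call of the leading probe set (1.11, adjusted p = 0.0702), and that of 1423064_at was lost without day 4, 5, 6 or 7 (-0.74 to -0.35, adjusted p from 0.0591 to 0.473).

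In the knockdown courses the probe set 1423064_at fell with time after Esrrb, Tbx3, Sox2 and Nanog shRNA. With Esrrb shRNA its signal was 1899 and 3772 on days 0 and 1 and 583, 506 and 479 on days 4 to 6. With Tbx3 shRNA it was 2931 and 2453 against 788, 601 and 395. Late minus early it fell by 2.04 ± 0.26 on the log2 scale with Esrrb shRNA (adjusted p = 3.1e-07), by 2.06 ± 0.26 with Tbx3 (adjusted p = 7.75e-07), by 1.34 ± 0.26 with Sox2 (adjusted p = 5.05e-04) and by 1.08 ± 0.26 with Nanog (adjusted p = 0.00441). The Sox2 call was lost without day 0 (-1.23, adjusted p = 0.0837) and the Nanog call without day 5 (-1.03, adjusted p = 0.0533). The Esrrb and Nanog values also moved to -3.17 without day 0 and -2.20 without day 0. The leading probe set fell with Esrrb shRNA, by 1.42 ± 0.25 (adjusted p = 1.05e-04), and with Tbx3 shRNA, by 1.16 ± 0.25 (adjusted p = 0.003), both lost without day 0, at -1.47 (adjusted p = 0.101) and -1.08 (adjusted p = 0.364). The empty vector course itself went from 1196 and 1634 to 928, 1108 and 710.5 on 1423064_at, which did not pass (-0.53 ± 0.26, adjusted p = 0.416).

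Against the empty vector, late Dnmt3a was lower with Oct4 shRNA on 1423064_at (-0.998 ± 0.23, adjusted p = 0.00185) and on the leading probe set (-0.73 ± 0.22, adjusted p = 0.0223). Of 33006 probe sets 5225 lay below the empty vector with Oct4 shRNA when only the late days were compared. The Oct4 shRNA signals of 1423064_at on days 4 to 6 were 338, 508 and 439, all below every empty vector value. These calls were lost without day 5 (-0.997, adjusted p = 0.0612) for the first and without day 4 or 5 (-0.81 to -0.41, adjusted p from 0.0833 to 0.463) for the second, which also missed the threshold with plain means of days (-0.69, adjusted p = 0.0711). 1423064_at was also lower with Sox2 (-0.71 ± 0.23, adjusted p = 0.027) and Esrrb shRNA (-0.73 ± 0.23, adjusted p = 0.0375), calls lost without day 4, 5, 6 or 7 (-0.83 to -0.44, adjusted p from 0.0539 to 0.499) and without day 4, 5, 6 or 7 (-0.83 to -0.62, adjusted p from 0.0762 to 0.389). With Nanog shRNA 1423065_at was lower (-0.55 ± 0.19, adjusted p = 0.0373), a call lost without day 0, 1, 4, 5 or 7 (-0.56 to -0.15, adjusted p from 0.0516 to 0.808). In the Sox2 course 1423063_at was higher, at 0.64 ± 0.19 (adjusted p = 0.0124), with signals of 398, 489 and 593 against 308, 298 and 319 on days 4 to 6, and was lost without day 5 (0.67, adjusted p = 0.0936). With Tcl1 shRNA the leading probe set was above the empty vector on 8 of 8 days (exact p = 0.00781), but its late difference of 0.68 ± 0.22 (adjusted p = 0.0525) did not pass. Over the 70 samples 1423063_at correlated with 1460324_at at r = 0.87 and with 1423064_at at -0.14.

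**Figure D4:**
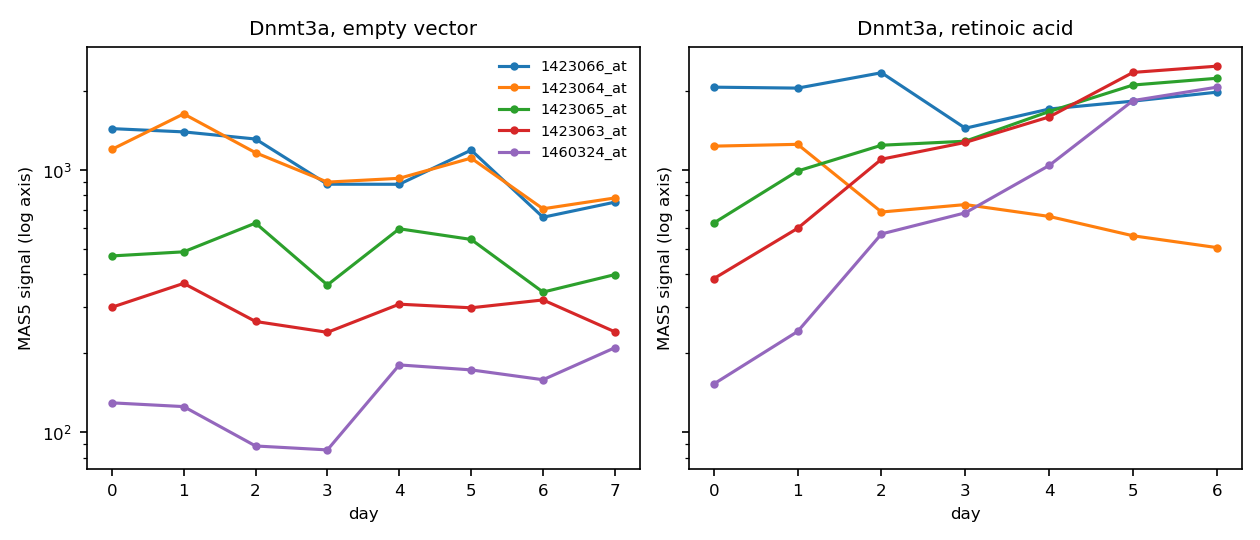
Signals of the 5 Dnmt3a probe sets (MAS5 units, log axis) by day with the empty vector (left) and in retinoic acid (right), 1 sample per point and 1 line per probe set. In retinoic acid 1460324_at goes from 153 to 2065 while 1423064_at goes from 1231 to 506. Levels of different probe sets are not comparable.

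Uhrf1, which targets the maintenance enzyme to hemimethylated DNA, was lower late in 4 courses on its leading probe set, 1415810_at. The empty vector signals were 4259 at the lowest, 4445 at the median and 5496 at the highest. On days 4 to 6 the signals were 3960.1, 2940.2 and 3316 with Nanog shRNA, 3576, 3242 and 3196 with Sox2 shRNA and 2459, 2049 and 1728 in retinoic acid, all below the lowest empty vector value. Set against the late empty vector days alone, 3088, 4308 and 6391 of 33006 probe sets lay below, in that order. The late differences of Uhrf1 were -1.20 ± 0.12 (SE, adjusted p = 1.81e-11) in retinoic acid (2.3-fold), -0.48 ± 0.12 (adjusted p = 0.0028) for Sox2, -0.47 ± 0.12 (adjusted p = 0.00405) for Nanog and -0.47 ± 0.12 (adjusted p = 0.00647) for Mm343880 shRNA. Only the retinoic acid call held under every alternative. The others were lost without day 6 (-0.40, adjusted p = 0.0634) for Sox2, without day 5 or 6 (-0.42 to -0.39, adjusted p from 0.0505 to 0.128) for Nanog and without day 5 or 6 (-0.51 to -0.39, adjusted p from 0.0543 to 0.489) for Mm343880, the last also with plain means of days (-0.44, adjusted p = 0.0915). The second probe set, 1415811_at, had -1.33, -0.57, -0.48 and -0.55 in the same courses. The last 3 calls were lost without day 5 (-0.52, adjusted p = 0.0631) for Sox2, without day 5 (-0.38, adjusted p = 0.215) for Nanog and without day 6 (-0.28, adjusted p = 0.701) for Mm343880. It also had -0.40 ± 0.13 (adjusted p = 0.0421) with Oct4 shRNA, lost without day 0, 3, 4, 5, 6 or 7 (-0.42 to -0.36, adjusted p from 0.0518 to 0.19). With Esrrb, Tbx3 and Tcl1 shRNA the leading probe set differed from the empty vector by 0.08 ± 0.12 (adjusted p = 0.804), -0.06 ± 0.12 (adjusted p = 0.824) and -0.16 ± 0.12 (adjusted p = 0.489). With Oct4 shRNA the leading probe set did not pass either, at -0.19 (adjusted p = 0.423 in the limma fit with no filter). In the contrast of Nanog, Oct4 and Sox2 shRNA against Esrrb, Tbx3 and Tcl1 shRNA, where 24.9% of all probe sets passed, the 2 Uhrf1 probe sets were -0.33 ± 0.07 (adjusted p = 2.28e-04) and -0.54 ± 0.08 (adjusted p = 5.19e-07). In the same contrast the Dnmt3b probe sets were -0.26 and -0.57, and those of Dnmt3a that passed -0.44 (1423066_at), -0.46 (1423064_at) and 0.56 (1423063_at). The sides of the contrast overlapped for Dnmt3b. On 1449052_a_at the late differences were 0.94 (Nanog), 0.55 (Oct4) and -0.19 (Sox2), against 0.62 (Esrrb), 0.45 (Tbx3) and 1.02 (Tcl1). Of these only that of Sox2 shRNA was below 0.

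Dnmt1 itself, which copies the mark, passed in 2 of its 24 late differences. On 1422946_a_at the empty vector signals were 3876 at the lowest, 4630.0 at the median and 5328 at the highest, the retinoic acid ones 3879.9 at the lowest, 4440.4 at the median and 4806 at the highest, and the late difference in retinoic acid was -0.23 ± 0.13 (adjusted p = 0.146). This probe set was lower late with Mm343880 shRNA, where the signals on days 4 to 6 were 4417, 3420.5 and 3351, at -0.44 ± 0.13 (adjusted p = 0.0175), a call lost without day 3 or 6 (-0.45 to -0.40, adjusted p from 0.0617 to 0.439). The leading probe set by rank, 1447877_x_at, lies on the B array and is of a type (suffix _x_at) whose probes can match other genes. It was lower in retinoic acid at -0.97 ± 0.23 (adjusted p = 3.98e-04), a call that rested on day 6 (323 against 705 on day 5) and was lost without day 6 (-0.81, adjusted p = 0.141). The third, 1435122_x_at, passed in none of the 8 late differences, which ran from -0.17 to 0.19.

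Genes of S phase, the time when both maintenance members act, were listed beside them. Of 18 genes 17 were tested (Chaf1a was not found among the single-gene probe sets). Late, 0 were higher and 13 lower with Sox2 shRNA (list median -0.49 against -0.0022 over all probe sets), 0 and 9 with Oct4 (-0.48 against -0.09), 0 and 7 with Nanog (-0.29 against 0.06), 0 and 6 with Mm343880 (-0.26 against 0.01) and 2 and 12 in retinoic acid (-0.89 against 0.16). The counts were 0 and 1 with Esrrb (-0.06 against -0.01), 1 and 1 with Tbx3 (0.02 against -0.05) and 0 and 0 with Tcl1 shRNA (-0.19 against -0.10). Over all probe sets, 16.5% passed late with Sox2, 11.4% with Oct4, 15.6% with Nanog and 11.6% with Mm343880 shRNA. The share was 8.56% with Esrrb, 8.04% with Tbx3, 6.47% with Tcl1 shRNA and 43.6% in retinoic acid. Mcm2, Mcm3 and Mcm5 encode subunits of the replicative helicase. Mcm2 was lower at -0.94 ± 0.10, adjusted p = 1.26e-09 with Sox2 shRNA and at -0.63 ± 0.10, adjusted p = 8.06e-06 with Nanog shRNA, and Mcm5 at -1.78 ± 0.13, adjusted p = 3.66e-15 in retinoic acid. Pcna, the sliding clamp, was lower with Oct4 shRNA, at -0.64 ± 0.10, adjusted p = 6.13e-06. Cdt1, a licensing factor, was lower with Sox2 shRNA, at -0.75 ± 0.13, adjusted p = 4.38e-05. The part of the cell cycle in the Uhrf1 values was not tested.

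Of 15 other genes that help maintain, target or limit methylation, all tested, 1 was higher and 3 lower with Nanog shRNA, 0 and 5 with Oct4, 0 and 4 with Sox2, 1 and 2 with Mm343880, 1 and 0 with Tbx3, 0 and 0 with Esrrb and Tcl1, and 6 and 7 in retinoic acid. The medians ran from -0.20 (Sox2) to 0.23 (Mm343880), against -0.0022 and 0.01 over all probe sets. Of all probe sets, 6.47% (Tcl1) to 16.5% (Sox2) passed late in the shRNA courses and 43.6% in retinoic acid. Prdm14, a repressor of Dnmt3b and Dnmt3l in naive cells, was lower in retinoic acid (-4.11 ± 0.29, adjusted p = 2.75e-16) and with Oct4 (-1.78 ± 0.28, adjusted p = 7.55e-06), Nanog (-1.60 ± 0.28, adjusted p = 4.49e-05), Sox2 (-1.41 ± 0.28, adjusted p = 2.22e-04) and Mm343880 shRNA (-1.34 ± 0.29, adjusted p = 9.66e-04). Dppa3, which keeps Uhrf1 out of the nucleus in the egg, was higher with Nanog shRNA (1.48 ± 0.19, adjusted p = 7.81e-08) and lower with Sox2 shRNA (-1.04 ± 0.19, adjusted p = 3.66e-05) and in retinoic acid (-2.39 ± 0.19, adjusted p = 1.99e-14). Zfp57, a zinc finger protein that protects imprints, was lower with Oct4 shRNA (-1.34 ± 0.33, adjusted p = 0.00406).

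Tet1, the oxidase, was high on day 0 in some courses and low on nearly all later days. On the leading probe set, 1455425_at, the day 0 signals were 5019 with the empty vector, 4510.3 with Nanog, 4824 with Sox2, 3328 with Oct4 shRNA and 3814 in the retinoic acid course. In the other 4 courses day 0 gave 719.9 (Esrrb), 1423 (Tbx3), 1370.5 (Tcl1) and 2070.2 (Mm343880). From day 1 on the empty vector lay between 978 and 2497, below its own day 0 value. The probe sets 1429448_s_at and 1419896_at had the same split of day 0 values, with 2399.6 and 1240.0 in the empty vector and 565 and 288 in the Esrrb course. The late, early, within-course and day-matched values of the leading probe set are therefore given without day 0 too.

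Late Tet1 was lower with Esrrb shRNA, at -1.45 ± 0.37 (SE, adjusted p = 0.00618), and -1.33 (adjusted p = 0.00929) without day 0, with signals of 557, 542 and 620.5 on days 4 to 6 against 1489, 1268 and 2050.0 in the empty vector. The groups did not overlap on these days. Such a lack of overlap was common. With Esrrb shRNA 3846 of 33006 probe sets lay above and 3634 below the empty vector on the late days. In the other 7 courses 2819 (Tcl1) to 10429 (retinoic acid) lay above and 3088 (Nanog) to 6391 (retinoic acid) below. With Oct4 shRNA the late signals were 515, 641 and 601 and the difference -1.35 ± 0.37 (adjusted p = 0.00876), or -1.31 (adjusted p = 0.00787) without day 0. In retinoic acid they were 620.4, 906 and 877, with -0.97 ± 0.37 (adjusted p = 0.0291), or -0.87 (adjusted p = 0.0372). With Sox2 shRNA the 3 days were 269, 702 and 2314, so day 6 was above every late empty vector value. The difference was -1.03 ± 0.37 (adjusted p = 0.0456), or -0.98 (adjusted p = 0.0443). None of these 4 calls passed with plain means of days (-1.42, adjusted p = 0.144 for Esrrb, -1.40, adjusted p = 0.125 for Oct4, -0.97, adjusted p = 0.169 for retinoic acid and -1.01, adjusted p = 0.276 for Sox2). They were lost without day 4 or 5 (-1.59 to -1.34, adjusted p from 0.0613 to 0.104) for Esrrb, without day 4, 5 or 6 (-1.68 to -1.22, adjusted p from 0.0535 to 0.0764) for Oct4, without day 4, 5 or 6 (-1.36 to -0.57, adjusted p from 0.0537 to 0.64) for retinoic acid and without day 2, 4, 5 or 7 (-1.16 to -0.49, adjusted p from 0.0525 to 0.564) for Sox2. Day by day, Tet1 was below the empty vector on 8 of 8 days with Esrrb (-1.63 ± 0.83, SD), Oct4 (-0.95 ± 0.53) and Tcl1 shRNA (-1.04 ± 0.51; exact p = 0.00781 each). Over the 7 days after day 0 these were -1.47 ± 0.75, -1.01 ± 0.55 and -0.92 ± 0.41 (exact p = 0.0156 each, the smallest that 7 days allow). The late difference of Tcl1 shRNA, -1.04 ± 0.37 (adjusted p = 0.0776), did not pass. With Tbx3, Nanog and Mm343880 shRNA the late differences were -0.09 ± 0.37 (adjusted p = 0.93), -0.56 ± 0.37 (adjusted p = 0.354) and -0.15 ± 0.37 (adjusted p = 0.867).

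Of the other Tet1 probe sets, 1429448_s_at was lower with Esrrb shRNA (-1.03 ± 0.33, adjusted p = 0.0378), lost without day 0, 1, 4, 5 or 6 (-1.07 to -0.93, adjusted p from 0.055 to 0.263). 1419896_at was lower with Esrrb shRNA (-0.86 ± 0.25, adjusted p = 0.0209), lost without day 4, 5 or 6 (-0.91 to -0.78, adjusted p from 0.0629 to 0.174). It was also lower in retinoic acid (-0.63 ± 0.25, adjusted p = 0.0386), lost without day 2, 4 or 6 (-0.62 to -0.33, adjusted p from 0.0546 to 0.723). Neither passed with Oct4 or Sox2 shRNA. In the limma fit with no filter, 1429448_s_at had -0.61 (adjusted p = 0.350) with Oct4 and -0.68 (adjusted p = 0.223) with Sox2 shRNA. There 1419896_at had -0.69 (adjusted p = 0.0930) and -0.40 (adjusted p = 0.403). The early difference with Esrrb shRNA was -1.92 ± 0.44 (adjusted p = 0.0186) on the leading probe set. It rests on day 0, where the daily difference was -2.76, against -0.27 on day 1. Without day 0 it was 0.29 (adjusted p = 0.999), with the sign turned, and it was also lost without day 2. Within courses, late minus early, Tet1 fell in retinoic acid by 1.77 ± 0.41 (adjusted p = 7.45e-04), with Oct4 shRNA by 1.66 ± 0.41 (adjusted p = 0.00769) and with Sox2 shRNA by 1.56 ± 0.41 (adjusted p = 0.0139). Without day 0 these were -1.96 (adjusted p = 0.082), -0.82 (adjusted p = 1) and -0.83 (adjusted p = 0.937), and none passed.

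**Figure D5:**
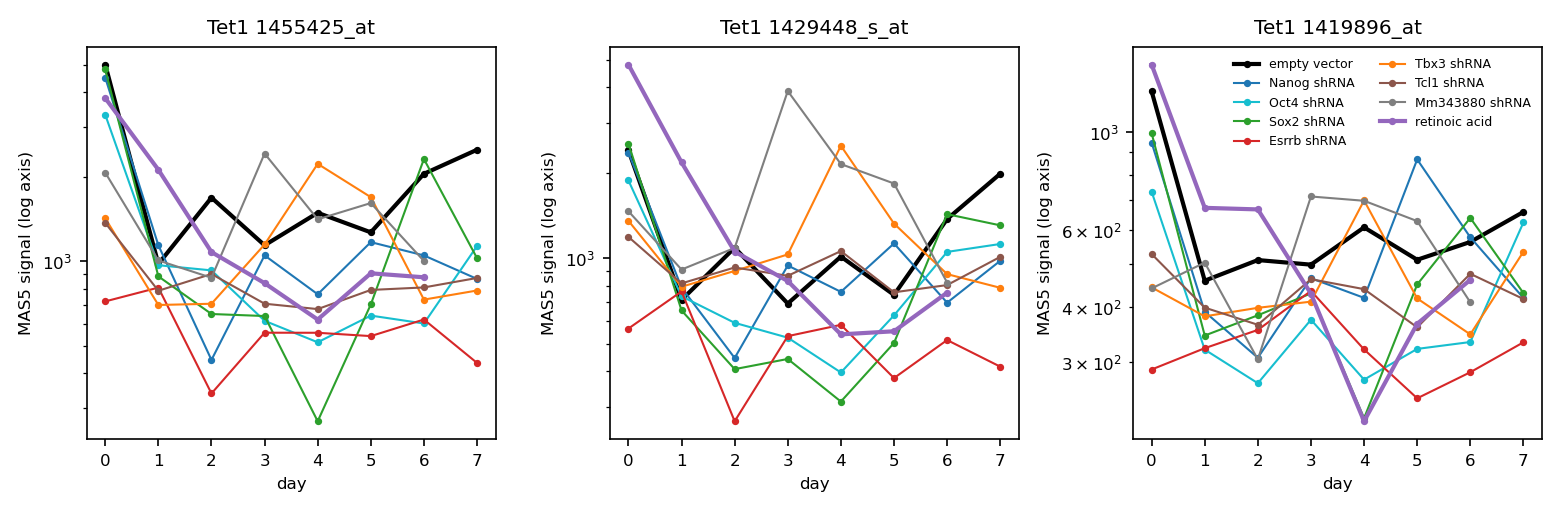
Signals of 3 Tet1 probe sets (MAS5 units, log axis) by day in the 9 courses, 1 panel per probe set, 1 line per course and 1 sample per point. On 1455425_at the empty vector starts at 5019 on day 0 and is at 978 on day 1, while the Esrrb shRNA course starts at 719.9.

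In all, 10 further genes of demethylation and the base excision repair that completes it were tested. Late, the counts higher and lower were 1 and 2 with Nanog, 1 and 3 with Oct4, 1 and 1 with Sox2 and Mm343880, 1 and 2 with Esrrb, 1 and 0 with Tbx3, 0 and 0 with Tcl1 shRNA, and 2 and 4 in retinoic acid. The medians ran from -0.38 (retinoic acid) to 0.14 (Mm343880), against 0.16 and 0.01 over all probe sets. Beside these counts, 6.47% (Tcl1) to 16.5% (Sox2) of all probe sets passed late in the shRNA courses and 43.6% in retinoic acid. Parp1, a poly(ADP-ribose) polymerase of strand break repair, was lower with Sox2 (-1.13 ± 0.14, adjusted p = 5.52e-08), Oct4 (-0.92 ± 0.14, adjusted p = 4.93e-06) and Nanog shRNA (-0.65 ± 0.14, adjusted p = 8.37e-04) and in retinoic acid (-1.06 ± 0.14, adjusted p = 3.46e-08). Gadd45b, a stress-induced gene linked to active demethylation, was higher with Nanog (1.71 ± 0.26, adjusted p = 3.6e-06) and Sox2 shRNA (1.499 ± 0.26, adjusted p = 2.52e-05) and lower in retinoic acid (-1.19 ± 0.26, adjusted p = 2.05e-04). Tet2, a second oxidase of the family, was lower with Oct4 (-0.98 ± 0.24, adjusted p = 0.00372) and Esrrb shRNA (-0.79 ± 0.24, adjusted p = 0.0296). Smug1, a glycosylase, was higher in retinoic acid (1.88 ± 0.20, adjusted p = 1.12e-10).

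Mbd3, the NuRD subunit, was lower in retinoic acid and, less firmly, with Oct4 and Mm343880 shRNA. The empty vector signals of its 1 probe set were 1409 at the lowest, 1764 at the median and 2027 at the highest. In retinoic acid they were 1624, 1558, 1014, 934, 1218, 986 and 896, all below the empty vector range from day 2 on. The late difference there was -0.77 ± 0.14 (SE, adjusted p = 6.41e-06), which held under every alternative. With Oct4 shRNA it was -0.40 ± 0.14 (adjusted p = 0.0436), a call lost whichever day was left out and with plain means of days (-0.37, adjusted p = 0.243), and with Mm343880 shRNA -0.43 ± 0.14 (adjusted p = 0.0315), lost without day 2, 3, 5 or 6 (-0.79 to -0.27, adjusted p from 0.0542 to 0.505). Day by day, Mbd3 was below the empty vector on 8 of 8 days with Oct4 (-0.34 ± 0.17, SD), Sox2 (-0.28 ± 0.18) and Tcl1 shRNA (-0.18 ± 0.18; exact p = 0.00781 each). With Nanog, Esrrb, Tbx3 and Tcl1 shRNA the late differences ran from -0.25 to -0.12, none past the threshold, and Sox2 shRNA had -0.34 ± 0.14 (adjusted p = 0.0826).

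Of 11 NuRD partners, all tested, 2 were higher and 0 lower late with Nanog and Esrrb, 1 and 0 with Oct4 and Tcl1, 4 and 2 with Sox2, 2 and 1 with Mm343880, 0 and 0 with Tbx3 shRNA, and 6 and 4 in retinoic acid. The medians ran from -0.04 (Oct4) to 0.66 (retinoic acid), against -0.09 and 0.16 over all probe sets. The late shares of all probe sets were 6.47% (Tcl1) to 16.5% (Sox2) in the shRNA courses and 43.6% in retinoic acid. Rbbp7, a histone-binding subunit, was higher with Nanog (0.70 ± 0.10, adjusted p = 1.24e-06) and Sox2 shRNA (0.65 ± 0.10, adjusted p = 3.27e-06). In retinoic acid Chd3, a remodelling ATPase, was higher (1.99 ± 0.23, adjusted p = 6.07e-10) and Mta3 lower (-1.83 ± 0.12, adjusted p = 5.17e-17). The readers that bind methylated CpG were tested for 5 genes. Late, 3 were higher with Nanog, 2 with Sox2, 1 each with Oct4 and Mm343880, 0 with Esrrb, Tbx3 and Tcl1 shRNA and 4 in retinoic acid, and 0 were lower in any. The medians ran from 0.12 (Oct4) to 1.24 (retinoic acid), against -0.09 and 0.16 over all probe sets. The reader Mbd1 was higher in retinoic acid (2.29 ± 0.21, adjusted p = 1.16e-12) and with Sox2 (1.44 ± 0.20, adjusted p = 6.96e-07) and Oct4 shRNA (1.06 ± 0.20, adjusted p = 1.86e-04), and Zbtb33, known as Kaiso, in retinoic acid (3.36 ± 0.42, adjusted p = 4.25e-09). Mbd1 also passed with Nanog shRNA (0.77 ± 0.20, adjusted p = 0.00619). Zbtb33 also passed with Nanog (1.53 ± 0.41, adjusted p = 0.00716) and Mm343880 shRNA (1.41 ± 0.42, adjusted p = 0.0195).

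Methylation draws on S-adenosylmethionine made by 1-carbon metabolism. Of this supply 6 genes were tested, while Gnmt was below the filter. Late, 0 were higher and 4 lower with Nanog and Sox2, 0 and 3 with Oct4, 0 and 2 with each of Esrrb, Tbx3, Tcl1 and Mm343880 shRNA, and 1 and 4 in retinoic acid. The medians ran from -1.67 (retinoic acid) to -0.12 (Tbx3), against 0.16 and -0.05 over all probe sets. Late, 6.47% (Tcl1) to 16.5% (Sox2) of all probe sets passed in the shRNA courses and 43.6% in retinoic acid. Shmt1 and Shmt2, the serine hydroxymethyltransferases of cytosol and mitochondria, were lower in retinoic acid (-2.30 ± 0.13, adjusted p = 2.74e-19, and -2.45 ± 0.17, adjusted p = 3.04e-16). Shmt1 was lower with Sox2 (-1.21 ± 0.12, adjusted p = 4.81e-10) and Shmt2 with Nanog shRNA (-1.22 ± 0.17, adjusted p = 4.35e-07). Ahcy, which clears the by-product S-adenosylhomocysteine, was lower with Sox2 shRNA (-1.08 ± 0.12, adjusted p = 5.25e-09), and Mat2b, the regulatory subunit of the synthetase, with Oct4 shRNA (-1.34 ± 0.18, adjusted p = 4.44e-07). Of 15 germ line genes whose promoters are known to be silenced by methylation, 8 were tested. Late, 2 were higher with Sox2 shRNA, Taf7l (1.25 ± 0.27, adjusted p = 5.32e-04) and Ddx4 (0.98 ± 0.22, adjusted p = 9.16e-04), and 1 with Tcl1 shRNA, Mael (1.01 ± 0.19, adjusted p = 3.11e-04). Mael was lower with Esrrb shRNA (-0.58 ± 0.19, adjusted p = 0.0409), 1 was higher and 1 lower in retinoic acid, and 0 passed in the other 4 courses. The medians ran from -0.31 (Esrrb) to 0.56 (Tcl1), against -0.01 and -0.10 over all probe sets. In retinoic acid the germ line calls were a smaller share than the 43.6% of all probe sets. DNA methylation itself was not measured.

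Time within the courses was tested by late minus early (days 0 and 1). With the empty vector 0 of 17 member probe sets passed by this test, against 0.457% of all probe sets (3 had an unadjusted p under 0.05), 0 also with each single day left out and 3 with array quality weights. In retinoic acid 3 rose, all of Dnmt3a, and 11 fell (25.5% of all). Among the 3 that rose, 1460324_at passed the filter on low signals only through the retinoic acid arrays and adds nothing as support. With Nanog shRNA 3 rose and 1 fell (7.07% of all), with Tcl1 shRNA 2 rose (1.37%) and with Mm343880 shRNA 3 rose and 3 fell (7.02%). With Oct4 shRNA 1 fell (5.36%), with Sox2 shRNA 3 (4.93%), with Esrrb shRNA 4 (4.23%) and with Tbx3 shRNA 4 (2.64%). Dnmt3b rose with Mm343880 (0.94 ± 0.14, adjusted p = 1.03e-05), Tcl1 (0.89 ± 0.14, adjusted p = 9.22e-05) and Nanog shRNA (0.64 ± 0.14, adjusted p = 0.00168), the last 2 lost without day 0, at 0.92 (adjusted p = 0.104) and 0.30 (adjusted p = 0.84), and the last also without day 5. The share of all probe sets that passed with a day left out is not given here either. Without day 0 the member counts were 2 for Nanog, 0 for Oct4, 0 for Sox2, 1 for Tbx3, 0 for Tcl1 and 2 for Mm343880. Without day 5 they were 2 for Nanog, 1 for Sox2 and 0 for Oct4, without day 6 2 for Mm343880 and 9 for retinoic acid, and without day 1 2 for Oct4.

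Early differences were few. Of the 17 member probe sets 2 were higher and 0 lower with Oct4 (2.16% of all probe sets passed), 2 and 2 with Esrrb (1.16%), 2 and 0 with Tbx3 (2.15%), 1 and 0 with Tcl1 shRNA (0.851%) and 2 and 1 in retinoic acid (7.07%). All of the higher ones were Dnmt3b. Without day 0 in any course, 1 of these 12 calls was left, with the curve drawn back from day 1, that of Dnmt3l in retinoic acid, which was -1.16 ± 0.23 (adjusted p = 9.48e-04), and -2.05 without day 0. With Nanog (0.727% of all), Sox2 (1.98%) and Mm343880 shRNA (0.488%) 0 members passed in limma, while 5, 2 and 2 of the 17 had an unadjusted p under 0.05. The change beyond the empty vector, which sets late minus early of a course against that of the empty vector, passed for 3 higher and 8 lower members in retinoic acid (17.9% of all), 3 lower with Esrrb (0.882%), 1 lower with Tbx3 (0.364%) and 1 higher with Mm343880 shRNA (0.997%). For Nanog (1.88%), Oct4 (0.703%), Sox2 (1.28%) and Tcl1 (0.0364%) it passed for 0, with 1, 0, 3 and 1 at an unadjusted p under 0.05. Among the 3 higher in retinoic acid, the Dnmt3a probe set 1460324_at passed the filter on low signals only through that course and adds nothing as support. Dnmt3l with Esrrb shRNA gave -1.56 ± 0.30 (adjusted p = 0.00259), which also passed with each single day left out (-2.35 without day 0), and the Dnmt3b probe set 1418351_a_at with Mm343880 shRNA 1.06 ± 0.28 (adjusted p = 0.0471), which was lost without day 0, 1, 2, 3, 4, 6 or 7 (0.70 to 1.73, adjusted p from 0.0525 to 0.533).

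The genes with the most similar profile to each leading probe set over the 70 samples are a description, since the samples share courses and the retinoic acid course weighs heavily. Pearson's r was taken over leading probe sets on the log2 scale. For Dnmt3b they were Dnmt3l (0.87), Ddx39a (0.86), Eef1d (0.86), Plcg2 (0.85) and Eif4ebp1 (0.85), so that its nearest gene on the arrays was its own cofactor. For Dnmt3l they were Pim3 (0.92), Ddx39a (0.91), Zpr1 (0.91), Nop2 (0.91) and Mrps18b (0.91). For Uhrf1 they were Mcm3 (0.89), Apobec3 (0.87), Espl1 (0.87), Mcm10 (0.86) and Shmt2 (0.86), among them 2 genes of replication, Mcm3 and Mcm10. For Tet1 they were Esco2 (0.84), Tasor (0.83), Hells (0.81), Mtm1 (0.80) and Cep55 (0.80). For Dnmt3a they were Ddit4l (0.74), Myrf (0.70), Zfp423 (0.70), Foxp1 (0.69) and Zcchc3 (0.67), for Mbd3 Polr2i (0.79), Prmt1 (0.78), Ctnnbl1 (0.77), Dus3l (0.77) and Fiz1 (0.77), and for Dnmt1 Cdca8 (0.59), Sema4d (0.58), D11Wsu47e (0.58), Rbm28 (0.58) and Wasf2 (0.58), the lowest values of the 7. The leading probe sets of Uhrf1 and Dnmt1 correlated at r = 0.51, while the 2 Uhrf1 probe sets correlated at 0.91.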

How the data were processed

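Total RNA of 70 samples was measured on MOE430A and MOE430B arrays. The tables hold signal intensities deposited by the authors, made with MAS5 per the submitters' processing notes (version not given in the sources used here). MAS5 scales each array on its own, and the A and B tables were not set against each other. Genes were named from the platform annotation, which gave 35041 probe sets 1 gene, 936 several and 9160 none. The 128 control probe sets were left out. Signals were taken as log2(signal + the table's 20th percentile), and probe sets above the table median (283.3 on A, 89.1 on B) on at least 3 of 70 arrays were kept. limma 3.58.1 in R 4.3.3 fitted each course with its own smooth curve of time (natural cubic spline, 3 degrees of freedom), with an intensity trend, for A (15497) and B (17509) separately, and p-values were adjusted over both by Benjamini-Hochberg within each comparison. Single leading probe sets were also tested by exact sign-flip permutation over matched days.

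The members and gene lists were chosen with earlier results of these data known. All members were accounted for, and from each list the passing genes with the smallest adjusted p, at most 3 per comparison, could be named. The fit was tested on simulated data for the Nanog shRNA course: of 100 probe sets changed by 1 on the log2 scale 40% were recovered in the late difference, and of 100 changed by 2, 88%. Alternatives were the pseudocount, the filter, quantile normalization, the curve, the variance model, array weights, a shared day factor, the samples fitted, the probe set rule and each day left out. The Dppa4 course and day 7 of the Mm343880 and retinoic acid courses were not analysed here. Some genes of the lists are not reported here.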

Additional observations from a re-analysis of the deposited data

Results flagged for a closer look

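In 8 of 63 sets of daily values of a leading probe set in 1 course, 1 day stood far from the others by the gap between it and its nearest neighbour, where chance marks about 1 in 20. Day 0 was the low day for Dnmt3b with Nanog shRNA (4020.4, the others 6803 to 9291), for Mbd3 with the empty vector (1409, the others 1741 to 2027) and for Mbd3 with Tcl1 shRNA (953, the others 1536 to 1829). Day 0 was the high day for Tet1 with Nanog shRNA (4510.3, the others 445 to 1170.4), Oct4 shRNA (3328, the others 515 to 1134) and Tcl1 shRNA (1370.5, the others 676 to 901). Dnmt3l was low on day 1 with the empty vector (3318, the others 4426 to 5451) and high on day 3 with Mm343880 shRNA (6572, the others 3536 to 4619).

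The change over time was set against that of the empty vector by limma's test of the difference itself. It passed for 17.9% of all probe sets in retinoic acid and 0.0364% (Tcl1) to 1.88% (Nanog) in the shRNA courses. Among the members it passed in 16 of 136 results. In retinoic acid these were, on the log2 scale, -1.003 for Dnmt1 (1447877_x_at), 1.32, 2.03 and 2.30 for Dnmt3a (1423065_at, 1423063_at and 1460324_at), -3.20 and -3.44 for Dnmt3b (1449052_a_at and 1418351_a_at), -4.41 for Dnmt3l, -1.13 and -0.93 for Uhrf1 (1415810_at and 1415811_at), -1.76 for Tet1 (1429448_s_at) and -0.70 for Mbd3. Dnmt3a gave -1.51 on 1423064_at and -1.20 on 1423065_at with Esrrb shRNA and -1.53 on 1423064_at with Tbx3 shRNA. Dnmt3l gave -1.56 with Esrrb shRNA, and Dnmt3b 1.06 on 1418351_a_at with Mm343880 shRNA. The Dnmt3a probe set 1460324_at passed the filter on low signals only through the retinoic acid arrays, so its call adds nothing as support. Of these 16 calls 8 passed with each single day left out, though without day 0 Dnmt3b in retinoic acid was -2.13 on 1418351_a_at, Uhrf1 -1.51 on 1415811_at and Dnmt3l with Esrrb shRNA -2.35. The other 8 were lost without at least 1 day. In retinoic acid Dnmt1 was lost without any of days 0 to 6 taken singly (-1.09 to -0.84, adjusted p from 0.0635 to 0.682), Mbd3 without day 0, 1, 5 or 6 (-0.92 to -0.63, adjusted p from 0.0671 to 0.225), Tet1 without day 0, 1, 4 or 6 (-2.75 to -1.39, adjusted p from 0.0504 to 0.142) and Dnmt3a 1423065_at without day 0 (1.14, adjusted p = 0.348). With Esrrb shRNA Dnmt3a was lost without day 0, 4, 5, 6 or 7 on 1423064_at (-2.00 to -1.40, adjusted p from 0.0572 to 0.213) and without day 0, 1, 4, 5 or 7 on 1423065_at (-1.84 to -0.92, adjusted p from 0.0549 to 0.518). With Tbx3 shRNA it was lost without each day but day 1 (-1.57 to -0.94, adjusted p from 0.0509 to 0.999), and Dnmt3b with Mm343880 shRNA without each day but day 5 (0.70 to 1.73, adjusted p from 0.0525 to 0.533).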

How the results depend on the processing

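Over all comparisons 49 late differences, 38 changes over time and 16 changes beyond the empty vector passed among the member probe sets. Of all probe sets, 6.47% (Tcl1 shRNA) to 43.6% (retinoic acid) passed late. Over time 0.457% (empty vector) to 25.5% (retinoic acid) passed, and beyond the empty vector 0.0364% (Tcl1 shRNA) to 17.9% (retinoic acid). Their shares under the alternatives are not given here. With plain means of days in place of curves the 3 member counts were 24, 23 and 8, and with array quality weights, whose estimation stopped short of full convergence, the member changes beyond the empty vector were 28. With each day left out in turn they ran from 27 to 49, 18 to 38 and 8 to 13. Under the other alternatives the counts stayed within 1.5 times. Of the 24 late differences of leading probe sets that passed, 7 passed under every alternative: Dnmt3b with Nanog, Tcl1 and Mm343880 shRNA, and Dnmt3b, Dnmt3l, Uhrf1 and Mbd3 in retinoic acid. Of the 32 that did not pass, 29 never did, and the others were Dnmt3a and Tet1 with Tcl1 shRNA and Dnmt3l with Tbx3 shRNA. No late call changed sign. The 12 early calls were recomputed under alternatives chosen after seeing the data. They numbered 1 with plain means of days, 46 with array quality weights and 1 to 13 with each day left out, the lowest without day 0. Early Tet1 with Esrrb shRNA then turned sign (0.29). Left-out days cost samples and plain means drop the curve; no other cause was tested.

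No paired analysis was possible by replicate number, because each course has 1 sample per day and no replicate numbers. Courses were paired by day in the sign-flip test and in the fit with a shared day factor. Precision is limited by 1 sample per course and day, by the lack of any stated replicate transduction, and for dim probe sets by the pseudocount. Late Dnmt3l in retinoic acid and the Tet1 probe set 1419897_at have only rough levels.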
